A study of Rattus norvegicus with 23 samples.

Results

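The genes of glycolysis and glycogen metabolism were examined in the gastrocnemius muscle of Wistar rats fed standard chow or a high-fat, high-sucrose (HFHS) diet. The members were 36 gene symbols chosen by function, and each row of the count table with 1 of these symbols was taken. They were found in 37 of the 18903 named entries, because Pkm stood for an entry on chromosome 8 and another on chromosome 20. All 37 entries were among the 13365 that passed the filter on low counts. The study asked how sex shapes the response of skeletal muscle to the diet, and its sequencing covered 23 rats with 1 poly-A, directional library each: 6 Male HFHS, 6 Male Chow, 6 Female HFHS and 5 Female Chow rats. The diets began at 4 weeks of age and lasted 14 weeks, and all rats were kept at thermoneutrality. At the age of 12 weeks the females lost their ovaries and were then given estradiol in the drinking water, apart from sham-operated animals, which cannot be picked out from the labels. Males had no such treatment, so the difference by sex cannot be told apart from that of the operation and the hormone.

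Muscle fibers draw on glucose from the blood and on glucose released from glycogen, the branched store inside the fiber. Both enter glycolysis as glucose phosphate and are taken down to pyruvate, which is reduced to lactate or passed to the mitochondria. Fast fibers rely on this route and hold much glycogen phosphorylase and many glycolytic enzymes, whereas slow fibers oxidize more and use the B form of lactate dehydrogenase. Many steps have a muscle isoform beside isoforms of liver, brain or other tissues, which is why several genes of the list encode the same activity.

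Total counts per rat lay between 21152221 and 51305283, and the members took 6.72% to 10.98% of them. The 6 markers of skeletal muscle were present in every group, with a summed level of 183686 to 248258 CPM (counts scaled to the size of the library with TMM factors). The CPM are not divided by transcript length, so levels are compared here between rats and not between genes. The diet of 3 females is given in opposite ways by the labels: rat 205 is coded as chow and titled HFHS, and rats 224 and 225 are coded as HFHS and titled chow. The codes were used. For members called or with the smallest p in a comparison, results that turn on these rats are also given by the titles or without these rats. Hepatocyte markers, which muscle should lack, had a summed level of 42.6 to 556 CPM in females and of 38.2 to 79.2 CPM in males. Of these markers 20 of 20 were lower in males (all tested genes: 5.17%), and none of them was at 0 throughout.

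Some libraries stood apart in their fiber type markers. The mean log2 CPM of 8 slow fiber markers (the slow myosin heavy and light chains, the slow troponins and the slow calcium pump) was 5.34 in Female Chow rat 205 and 5.75 in Male Chow rat 111. It was 7.90 in Male Chow rat 115 and between 8.55 and 10.6 in the other 20 rats, with the highest value in Male Chow rat 112. In bulk tissue, fewer slow fibers and less of these RNAs per fiber cannot be told apart. Rats 205 and 111 also had the highest shares of counts in the glycolytic and glycogen genes, 10.98% and 10.3%, and rat 112 had the lowest, 6.72%.

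Across rats, the members moved with this marker level more than with sex or diet. A slope on the slow fiber marker level was fitted with the 4 group means in the edgeR model, a comparison added after the levels had been seen. It is given in log2 CPM per 1 log2 unit of the marker level, and 24 of 37 entries passed an adjusted p of 0.05, against 11.3% of all tested genes. Of these 24, 3 rose with the slow markers (all genes: 5.30%) and 21 fell (all genes: 5.96%). The median slope was -0.11 over the members and -0.0019 over all tested genes.

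**Figure D1:**
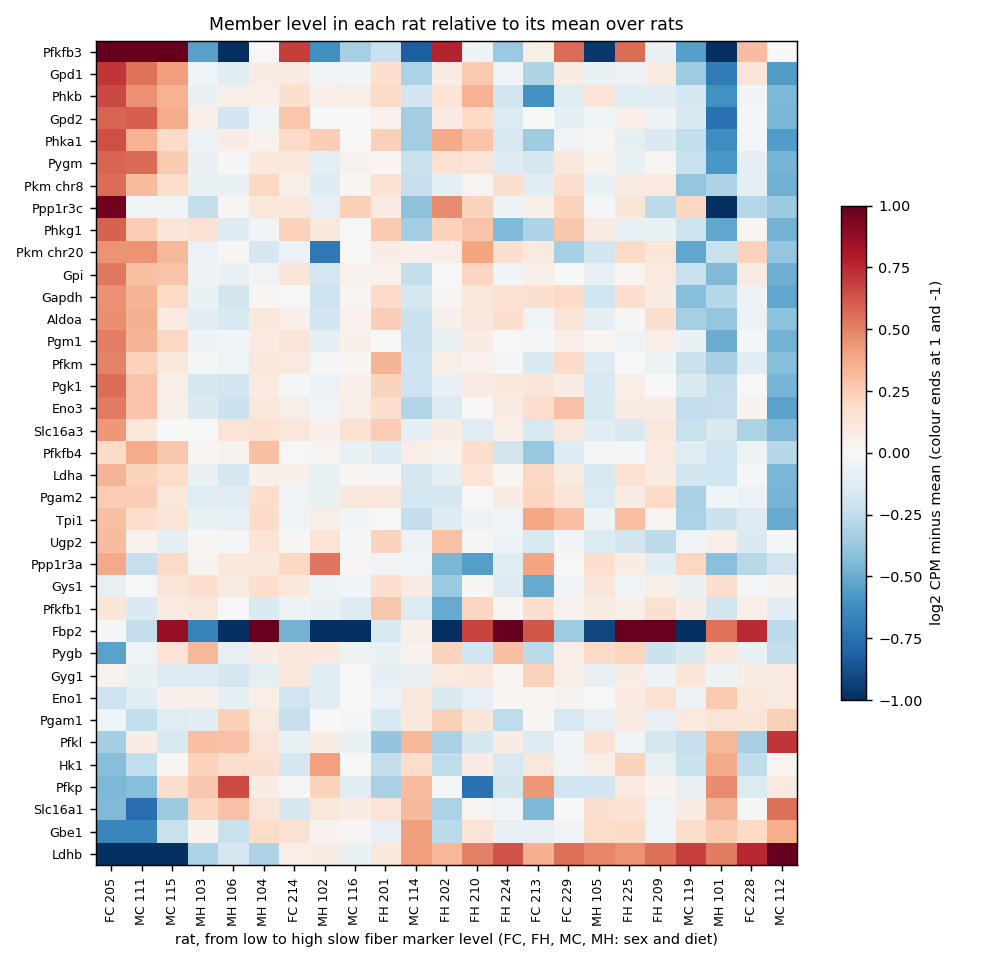
Log2 CPM of each entry in each rat, relative to its mean over the 23 rats, with rats ordered by slow fiber marker level from left to right and entries by their slope on it. Red is above and blue below the mean, the colour ends at 1 and -1, and the column names give sex, diet (FC, FH, MC, MH) and rat number. Most glycolytic enzymes are red in rats 205, 111 and 115 on the left and blue in rat 112 on the right, while Ldhb runs the other way.

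Ldhb, the heart and slow muscle form of lactate dehydrogenase, rose the most. Its level was 22.8 CPM in Female Chow rat 205, 32.2 in Male Chow rat 111, 98.4 in Male Chow rat 115 and 515 in Male Chow rat 112, a 22.6-fold range, and 166 to 350.0 CPM in the others. The rats with the least slow marker RNA were thus those with the least Ldhb. The slope of Ldhb was 0.78 log2 (SE 0.027, adjusted p = 3.64e-17 in edgeR).

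Gbe1, the glycogen branching enzyme, also rose with the slow markers, by a slope of 0.18 log2 (SE 0.025, adjusted p = 2.81e-05). It was lowest in rats 205 (41.3 CPM) and 111 (41.4 CPM) and reached 86.8 CPM in Male Chow rat 114. Slc16a1, which encodes the lactate and pyruvate transporter MCT1, had a slope of 0.14 log2 (SE 0.032, adjusted p = 0.00526). Its level ran from 39.8 CPM in rat 111 to 99.1 CPM in rat 112. Of the partners of these genes, Ldha, the muscle form of lactate dehydrogenase, fell with the slow markers (slope -0.09, SE 0.019), and so did Slc16a3, the lactate exporter MCT4 of fast fibers (slope -0.11, SE 0.023).

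The enzymes of the main glycolytic path fell with the slow markers. Of the 10 entries from aldolase to pyruvate kinase 8 fell, namely Aldoa, Tpi1, Gapdh, Pgk1, Pgam2, Eno3 and both Pkm entries, and so did Gpi, which interconverts glucose and fructose phosphates, and Pfkm, the muscle phosphofructokinase. The slope was -0.13 log2 for Aldoa (SE 0.0195, adjusted p = 6.56e-05), which cleaves fructose bisphosphate, and -0.15 log2 for the Pkm entry on chromosome 8 (SE 0.021, adjusted p = 4.72e-05). Aldoa was at 31781 CPM in rat 205 and 29509 CPM in rat 111, above its 17311 to 27378 CPM in all other rats. The isoforms of other tissues did not pass: Pfkl, Pfkp, Pgam1 and Eno1 had slopes of 0.053, 0.080, 0.041 and 0.041.

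Of the 5 entries of glycogen breakdown 4 fell with the slow markers. Pygm, the muscle glycogen phosphorylase, fell with the slow markers by a slope of -0.17 log2 (SE 0.024, adjusted p = 3.06e-05), from 20956 CPM in rat 205 and 20698 CPM in rat 111 to 10178 CPM in rat 112 and 9367 CPM in Male HFHS rat 101. The subunits of phosphorylase kinase, which switches the phosphorylase on, fell as well: Phkb by -0.19, the X-linked muscle subunit Phka1 by -0.18 and the catalytic subunit Phkg1 by -0.14. Pgm1, which carries glucose phosphate between glycogen and glycolysis, had a slope of -0.13. The brain form of the phosphorylase, Pygb, did not pass (slope 0.022).

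The shuttle that moves cytosolic reducing power to mitochondria had slopes of -0.20 for the cytosolic enzyme Gpd1 (SE 0.028, adjusted p = 3.39e-05) and -0.18 for the mitochondrial enzyme Gpd2 (SE 0.028, adjusted p = 0.000109). Gpd1 ran from 2001 CPM in rat 205 to 750.4 CPM in rat 101. Of the bifunctional enzymes that set the level of the activator of phosphofructokinase, Pfkfb3 had the steepest fall of all members, -0.33 (SE 0.076, adjusted p = 0.00753), Pfkfb4 fell by -0.11, and Pfkfb1 did not pass (slope -0.013).

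Of the 5 entries listed under glycogen synthesis, Gbe1 rose and Pgm1 fell, as given above. Glycogen synthase Gys1 (slope -0.014), the glycogen primer Gyg1 (0.023) and Ugp2, which makes the sugar donor (-0.060), did not pass. Neither did Ppp1r3a and Ppp1r3c, which bring a phosphatase to the glycogen particle (-0.036 and -0.14, adjusted p = 0.64 and 0.0671), nor Hk1 (0.055) and Fbp2, the muscle fructose bisphosphatase (-0.0092).

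**Figure D2:**
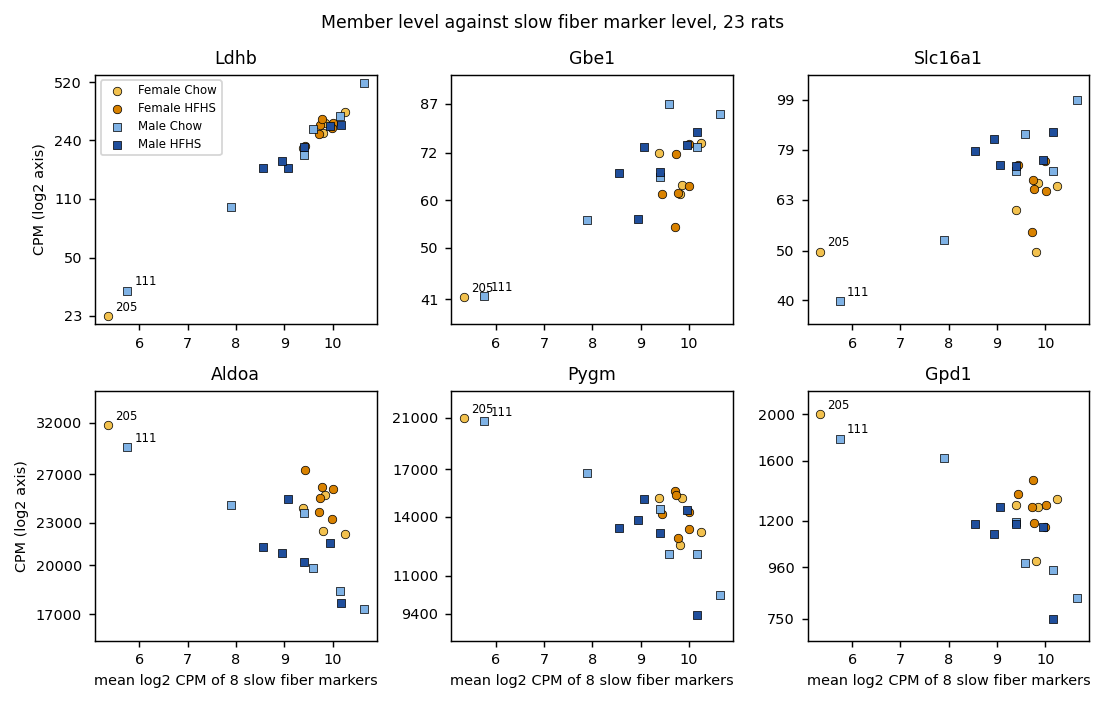
Level of 6 members in CPM (log2 axis) against the mean log2 CPM of 8 slow fiber markers, with 1 point per rat in the colour and shape of its group. Ldhb, Gbe1 and Slc16a1 are low and Aldoa, Pygm and Gpd1 are high in rats 205 and 111.

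These counts rested in part on the rats that stand apart. Of the 21 entries that fell, 17 were highest in rat 205 and 11 lowest in rat 112. Without rats 205 and 111, 11 of the 37 entries passed, against 2.58% of all tested genes, and all 24 earlier slopes kept their sign. The 11 were Ldhb, Gpi, Gapdh, Gpd1, Gpd2, Pfkm, the Pkm entry on chromosome 8, Pygm, Pgm1, Aldoa and Ldha, and all were among the 24. Gbe1 and Slc16a1 had slopes of 0.19 and 0.20 there, with adjusted p = 0.0624 and 0.0943 in edgeR, and Slc16a1 also lost its call without rat 111 alone.

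The other genes of these pathways were read from a list of 53 symbols, of which 49 were found and 41 tested, as 42 entries because Calm2 stood for 2. Of these entries, 4 rose (all tested genes: 5.30%) and 10 fell (all tested genes: 5.96%) with the slow fiber marker level. Those that rose were Slc16a7, a further lactate and pyruvate transporter (slope 0.54), the malate dehydrogenase Mdh1 (0.12), the phosphoglucomutase relative Pgm5 (0.13) and Pfkfb2 (0.12), the heart form of the bifunctional enzyme. Among those that fell were Pgp, which removes phosphate from phosphoglycolate (-0.16), Bpgm (-0.11), and Stbd1, which binds glycogen (-0.14). Hk2, the main hexokinase of muscle, did not pass (0.027), nor did the glucose transporter gene Slc2a4 (0.0084).

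By sex, few members passed. Averaged over the diets, 1 of the 37 entries was higher and 1 was lower in males, 5.41% of the members against 8.97% of all tested genes (3.80% higher and 5.17% lower). Pfkl, the liver type of phosphofructokinase, was higher in males, and Gyg1, glycogenin, which starts a new glycogen chain, was lower. Of the other entries 10 were above 0 and 25 below 0, and the median difference was -0.14 log2 over the members and -0.00030 log2 over all genes.

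Pfkl was at 9.51, 11.01, 11.4, 9.59 and 11.8 CPM in Female Chow rats 205, 213, 214, 228 and 229. It ran from 9.16 to 12.7 CPM in Female HFHS (median 10.7), from 10.3 to 19.8 CPM in Male Chow (median 12.1) and from 12.7 to 15.2 CPM in Male HFHS rats (median 14.04). Rat 112, with 19.8 CPM, was the highest, 5 of 6 Male HFHS rats lay above all females, and the sexes overlapped on both diets. The difference was 0.34 log2 in males over females (SE 0.089, 95% interval 0.17 to 0.52, adjusted p = 0.0166 in edgeR), and it passed when any 1 of the 23 rats was left out.

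Gyg1 was at 292, 334, 307, 299 and 296 CPM in the same Female Chow rats. It ran from 267 to 306 CPM in Female HFHS (median 294), from 260.0 to 309 CPM in Male Chow (median 278) and from 253 to 275 CPM in Male HFHS rats (median 264). Rats of a group were close to each other, with the smallest spread of any member (within-group SD 0.077 log2), and the sexes overlapped. The difference was -0.13 log2 (SE 0.036, 95% interval -0.20 to -0.058, adjusted p = 0.0263 in edgeR). It was lost (adjusted p up to 0.0745) without any 1 of rats 213, 202, 210, 111, 115 or 116, and without the 3 females of conflicting diet (-0.13, adjusted p = 0.0674).

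The genes called by sex are shown with the 250 bases before their start (RefSeq, GRCr8), since they are the members that a comparison of the design called. Pfkl lies on chromosome 20 on the plus strand, and its window is chr20:10663715-10663964. Gyg1 lies on chromosome 2 on the minus strand, with the window chr2:104582778-104583027. Capitals mark the palindromic E-box CACGTG, which was found in Gyg1 and not in the Pfkl window.
Pfkl: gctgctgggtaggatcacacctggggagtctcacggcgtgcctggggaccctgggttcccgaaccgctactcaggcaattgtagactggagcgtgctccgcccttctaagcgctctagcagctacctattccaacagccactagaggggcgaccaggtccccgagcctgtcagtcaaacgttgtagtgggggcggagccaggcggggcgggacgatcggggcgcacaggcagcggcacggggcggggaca
Gyg1: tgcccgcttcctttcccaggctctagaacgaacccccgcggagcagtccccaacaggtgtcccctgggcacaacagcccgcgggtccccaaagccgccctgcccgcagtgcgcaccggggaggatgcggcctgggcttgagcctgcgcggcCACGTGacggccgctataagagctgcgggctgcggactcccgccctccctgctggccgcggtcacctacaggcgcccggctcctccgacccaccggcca

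Endothelial markers moved with sex too. Of 7 tested, 6 were higher in males (all tested genes: 3.80%). Their summed levels were 236 to 291 CPM in Female Chow, 207 to 293 CPM in Female HFHS, 279 to 332 CPM in Male Chow and 328 to 391 CPM in Male HFHS rats. With the mean endothelial marker level in the model, the difference in Pfkl was 0.09 log2 (SE 0.14, adjusted p = 0.791) and that in Gyg1 was -0.13 log2 (SE 0.061, adjusted p = 0.237). With the hepatocyte marker level in the model, they were 0.36 log2 (SE 0.17, adjusted p = 0.434) and -0.18 log2 (SE 0.066, adjusted p = 0.318). Neither gene was called in these models. Both marker levels themselves differed by sex, and the SE of Pfkl was 0.089 log2 without them. The lost calls therefore cannot be told apart from this overlap with sex, and the part of other cells was not tested beyond this.

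Eno3 and Gapdh came next in p by sex. Eno3, the muscle enolase, was at 13309, 10449, 9664, 9469.9 and 11370.2 CPM in Female Chow rats 205, 213, 214, 228 and 229, and ran from 8444 to 10424 CPM in Female HFHS (median 9757), 6385 to 11293 CPM in Male Chow (median 8729.7) and 7897 to 9999 CPM in Male HFHS rats (median 8342). Rat 205 was the highest of all and rat 112 the lowest, and all groups overlapped. The difference was -0.24 log2 (SE 0.081, adjusted p = 0.0616 in edgeR).

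Gapdh, the glyceraldehyde phosphate dehydrogenase often used as a reference gene, was at 18945, 15463, 13804, 13359 and 15785 CPM in the Female Chow rats. It ran from 14049 to 15778 CPM in Female HFHS (median 15094), 9656 to 17521 CPM in Male Chow (median 13203) and 11331 to 14017 CPM in Male HFHS rats (median 12104). On the HFHS diet, every male was thus below every female, as in 1.65% of all genes, while on chow the sexes overlapped. By sex, Gapdh differed by -0.22 log2 on chow and -0.28 log2 on HFHS, and its interaction was -0.064 log2 (SE 0.17, adjusted p = 0.997 in edgeR). The difference over both diets was -0.25 log2 (SE 0.086, adjusted p = 0.0672 in edgeR). Eno3 and Gapdh were called with DESeq2 (adjusted p = 0.0322 and 0.0358) and with limma-voom (0.0385 and 0.0455), which called 4 members each (10.8%, against 12.1% of all genes with DESeq2 and 10.2% with limma-voom). With the endothelial marker level in the model they were at -0.13 and -0.12 log2 (adjusted p = 0.66 and 0.70), and with the hepatocyte marker level at -0.093 and -0.068 log2. Without the 3 females of conflicting diet, Eno3 was at -0.19 and Gapdh at -0.20 log2 (adjusted p = 0.186 and 0.195 in edgeR). Without rat 205 alone they had adjusted p = 0.114 and 0.122 in edgeR, and without rat 111 alone 0.0154 and 0.0158.

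Across roles, the entries from aldolase to pyruvate kinase had a median of -0.19 log2 by sex, with 8 of 10 below 0. Glycogen breakdown had 4 of 5 below 0 (median -0.11 log2). None of these 15 entries was called in edgeR with group means alone, while DESeq2 and limma-voom called Eno3 and Gapdh, as given above. Hk1, the hexokinase of most tissues, and Slc16a1 were above 0, by 0.20 log2 (SE 0.072, adjusted p = 0.0845) and 0.23 log2 (SE 0.11, adjusted p = 0.201).

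With the slow fiber marker level in the model, more members passed by sex. There 17 of 37 entries were called, against 13.1% of all tested genes (5.74% higher, 7.33% lower), and all 17 had the same sign as without it. Pfkl (0.35 log2), Hk1 (0.21) and Slc16a1 (0.24) were higher in males, and 14 entries were lower, among them Gapdh (-0.29, SE 0.052, adjusted p = 0.000522), Aldoa (-0.26, SE 0.049, adjusted p = 0.00088), Eno3 (-0.27, SE 0.055, adjusted p = 0.0015), Pgk1 (-0.23), Ldha (-0.20), Gyg1 (-0.12) and Gpd1 (-0.26). The median SE of the members was 0.061 log2 with the marker level in the model and 0.086 log2 without it. Over all members the median difference was -0.16 log2, and over all genes -0.00015 log2. On HFHS alone 9 entries were called in this model (all genes 8.22%) and on chow alone 1, Eno3 (all genes 2.18%). Without rats 205 and 111 and without the marker level, 5 entries passed: Pfkl higher, and Aldoa, Gyg1, Gapdh and Eno3 lower, against 9.45% of all genes.

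**Figure D3:**
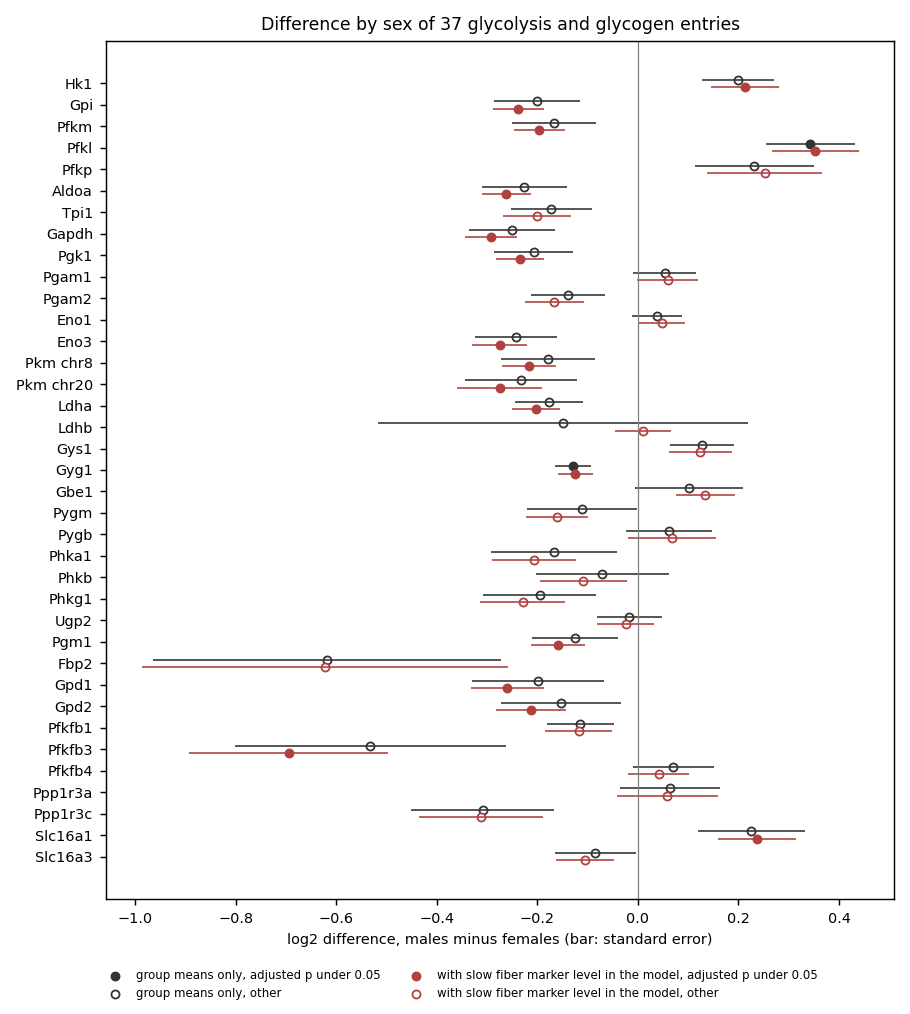
Log2 difference of males minus females for the 37 entries in order of their role, with its standard error, from the model of group means (dark) and with the slow fiber marker level added (red). Filled points passed an adjusted p of 0.05. In the first model these are Pfkl and Gyg1, and in the second 17 entries, 14 of them below 0.

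Within each diet the edgeR test called 0 of 37 entries by sex, against 1.72% of all genes on chow and 4.83% on HFHS. At an unadjusted p under 0.05 there were 4 entries on chow (10.8%, all genes 11.9%) and 9 on HFHS (24.3%, all genes 19.9%). DESeq2 called 0 on chow and 1 on HFHS (Gyg1, lower, all genes 7.58%), and limma-voom called 0 on both. On the HFHS diet, the groups did not overlap for 3 entries, all lower in males (8.11% of the members, against 1.65% of all genes lower and 3.11% in either direction): Gpi, Gapdh and the Pkm entry on chromosome 20. By the diets of the titles, 4 entries were called on HFHS (Pfkl, Hk1 and Pfkp higher, Aldoa lower), 10.8% of the members against 10.1% of all genes. Without the 3 females 2 entries were called (Pfkl and Hk1, both higher), 5.41% against 5.58% of all genes.

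**Figure D4:**
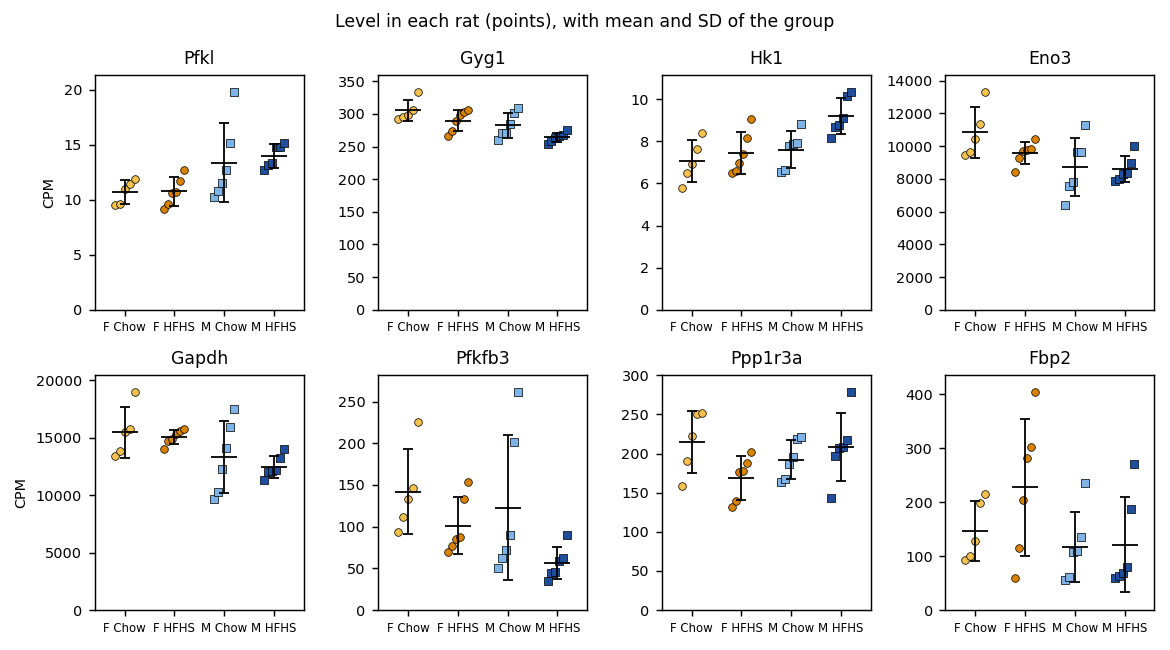
CPM of 8 members in each of the 23 rats by group (F, female; M, male), with the mean and SD of the group. Pfkl and Hk1 sit higher and Gyg1, Eno3 and Gapdh lower in Male HFHS than in Female HFHS rats, and in Pfkfb3 the Male Chow rats split into 201.7 and 261 CPM against 50.9 to 90.2 CPM.

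The other pathway genes had 1 higher and 6 lower by sex among the 42 entries tested, against 3.80% higher and 5.17% lower among all tested genes. Nhlrc1, a ubiquitin ligase involved in glycogen quality, was higher in males, from 8.69 and 9.84 CPM in Female HFHS and Female Chow to 12.7 and 12.8 CPM in Male HFHS and Male Chow (0.45 log2, SE 0.12, adjusted p = 0.017). Ppp1r3d, a further glycogen targeting subunit, was lower (-0.42 log2, SE 0.081, adjusted p = 0.00149), as was G6pc3 (-0.18), a glucose phosphatase of most tissues. Of the 2 Calm2 entries 1 was lower (-0.22 log2, adjusted p = 0.0387), and the other, at higher CPM, was at -0.14 log2 (adjusted p = 0.551). Among the genes lower in males were also the liver forms Pklr (-3.71 log2, SE 0.61) and Fbp1 (-1.84 log2, SE 0.34), which moved in the same direction as the hepatocyte markers given above. The hexokinase Hk2 and the glucose transporter gene Slc2a4 differed by -0.094 and 0.032 log2 and did not pass.

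The diet changed no member past the threshold. The edgeR test called 0 of 37 entries by diet in females (0.0150% of all genes), 0 in males (0.0224%), 0 averaged over the sexes (0.0524%) and 0 for the interaction (0% of all genes). At an unadjusted p under 0.05 there were 1 entry in females (Ppp1r3a), 3 in males (Pfkfb3, Hk1 and Gyg1), 3 averaged and 1 for the interaction (Ppp1r3a). These were 2.7%, 8.11%, 8.11% and 2.7% of the members, against 6.96%, 7.91%, 9.77% and 4.88% of all genes. DESeq2 and limma-voom called 0 in all 4 comparisons. The median difference over the members was -0.043 log2 in females and -0.0073 log2 in males. The median SE was 0.12 log2 in each sex. Differences of more than 2 SE, such as those of Pfkfb3 and Hk1 in males (SE 0.38 and 0.099), did not pass the adjustment over all genes. The absence of calls thus does not show that levels were unchanged, and no smallest detectable change is given here.

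Pfkfb3, the inducible bifunctional enzyme, had the difference by diet furthest from 0 among the members in males. It was at 225, 94.1, 146, 112 and 133 CPM in Female Chow rats 205, 213, 214, 228 and 229, and ran from 70.1 to 154 CPM in Female HFHS (median 86.4), 50.9 to 261 CPM in Male Chow (median 81.1) and 35.4 to 90.3 CPM in Male HFHS rats (median 52.6). The high Male Chow rats were 111 and 115, which also had the least slow marker RNA of that group, and the groups overlapped. The difference was -1.15 log2 in males (SE 0.38, 95% interval -1.89 to -0.41, adjusted p = 0.472 in edgeR) and -0.49 log2 in females (SE 0.39, adjusted p = 0.825). In males it was -0.67 log2 with limma-voom, -0.56 log2 with the endothelial marker level in the model and -0.76 log2 without rats 205 and 111. The difference between the sexes in this change was -0.65 log2 (SE 0.54, adjusted p = 0.983). Rats 205 and 224, of conflicting diet, were the highest Female Chow and the lowest Female HFHS rat, so the change in females leans on them.

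Hk1 had levels of 5.79, 8.40, 6.93, 6.51 and 7.64 CPM in the Female Chow rats, 6.51 to 9.08 CPM in Female HFHS (median 7.18), 6.55 to 8.83 CPM in Male Chow (median 7.84) and 8.16 to 10.3 CPM in Male HFHS rats (median 8.94). Of the 6 males on HFHS, 3 lay above every male on chow and the others among them. The difference by diet in males was 0.26 log2 (SE 0.099, adjusted p = 0.522 in edgeR). Gyg1 differed by -0.11 log2 by diet in males (SE 0.050, adjusted p = 0.613) and by -0.077 log2 in females (SE 0.053, adjusted p = 0.782), which was -0.039 and -0.052 log2 without rat 213 or 201.

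Ppp1r3a, which targets a phosphatase to glycogen in muscle, had the smallest p of the members for a difference between the sexes in its change by diet. It was at 249.96, 252, 222, 158 and 191 CPM in Female Chow rats 205, 213, 214, 228 and 229, and ran from 131 to 202 CPM in Female HFHS (median 177), 164 to 221 CPM in Male Chow (median 191) and 144 to 278 CPM in Male HFHS rats (median 208). The difference by diet was -0.35 log2 in females (SE 0.14, adjusted p = 0.671 in edgeR) and 0.11 log2 in males. The interaction was 0.45 log2 (SE 0.20, adjusted p = 0.983), and all groups overlapped. By the diets of the titles, the difference in females was -0.16 log2 and the interaction 0.27 log2. Without the 3 females of conflicting diet, they were -0.37 log2 and 0.49 log2. With limma-voom the difference in females was -0.21 log2.

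The remaining members with the smallest p by diet were Pkm on chromosome 20, Pygb, Tpi1 and Pfkp. The chromosome 20 entry was at 46.5, 36.4, 32.7, 40.0 and 27.1 CPM in the Female Chow rats, 35.8 to 44.8 CPM in Female HFHS (median 37.7), 23.8 to 46.5 CPM in Male Chow (median 34.6) and 20.7 to 34.5 CPM in Male HFHS rats (median 30.2). Its difference was -0.24 log2 by diet in males (SE 0.15, adjusted p = 0.732), and it was -0.13, -0.16 and -0.16 log2 without rat 111, 115 or 102, and -0.12 log2 with the endothelial marker level in the model. The groups by diet overlapped in both sexes, and only on HFHS did the sexes separate. The interaction of this entry was -0.32 log2 (SE 0.22, adjusted p = 0.983 in edgeR).

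Pygb was at 2.33, 2.82, 3.66, 3.22 and 3.53 CPM in the Female Chow rats, 2.90 to 4.16 CPM in Female HFHS (median 3.56), 2.86 to 3.71 CPM in Male Chow (median 3.27) and 3.18 to 4.25 CPM in Male HFHS rats (median 3.63). Its difference by diet in females was 0.17 log2 (SE 0.12, adjusted p = 0.80), and it was -0.20 log2 by the diets of the titles and -0.023 log2 without the 3 females of conflicting diet. Its locus overlaps Abhd12 on the other strand, at a mean of 10.9 CPM. Whether the counting used strand is not given in the sources used here, so reads of the pair cannot be told apart.

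Tpi1, the triose phosphate isomerase, was at 779.6, 825, 615, 578 and 777 CPM in the Female Chow rats, 578 to 780.3 CPM in Female HFHS (median 625), 445 to 713 CPM in Male Chow (median 579) and 546 to 720.4 CPM in Male HFHS rats (median 608). Its interaction was 0.23 log2 (SE 0.16, adjusted p = 0.983). Pfkp, the platelet type of phosphofructokinase, was at 1.94, 3.57, 2.67, 2.41 and 2.30 CPM in the Female Chow rats, 1.58 to 2.81 CPM in Female HFHS (median 2.47), 1.97 to 3.29 CPM in Male Chow (median 2.66) and 2.32 to 4.16 CPM in Male HFHS rats (median 3.13). Its interaction was 0.37 log2 (SE 0.24, adjusted p = 0.983), and it was 0.22 log2 without rat 213 and 0.025 log2 with the endothelial marker level in the model. In both genes all 4 groups overlapped.

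**Figure D5:**
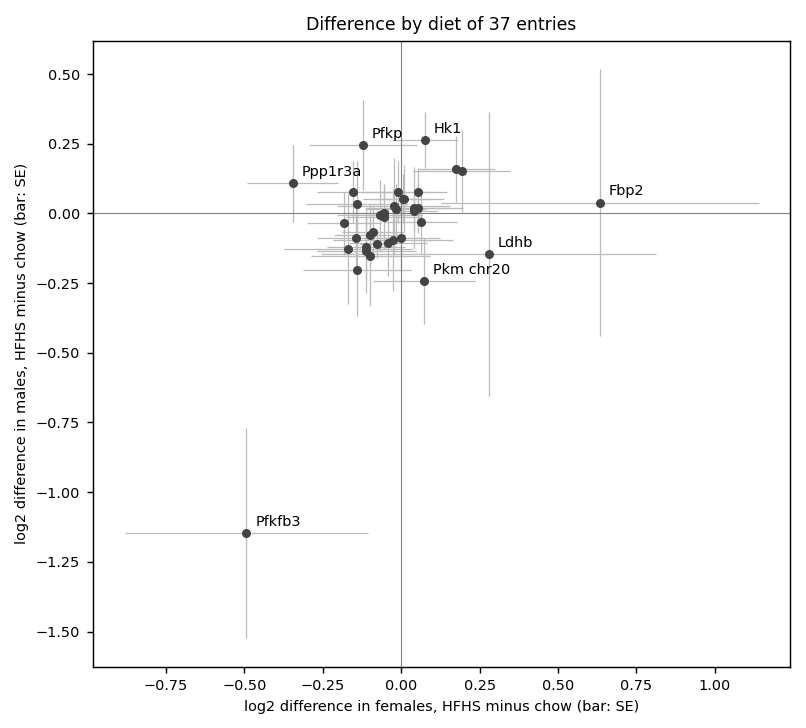
Log2 difference by diet (HFHS minus chow) in females on the horizontal and in males on the vertical axis, with standard errors, for the 37 entries. Most entries lie within their error of 0 in both sexes, and Pfkfb3 lies apart at -0.49 and -1.15.

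Some members varied widely between rats of the same group. Fbp2, which works against phosphofructokinase, ran from 55.1 CPM in Male Chow rat 119 to 404 CPM in Female HFHS rat 225, a 7.33-fold range, with a within-group SD of 0.85 log2. High and low rats stood in every group: the range was 92.5 to 215 CPM in Female Chow, 59.3 to 404 CPM in Female HFHS, 55.1 to 235 CPM in Male Chow and 58.8 to 270.2 CPM in Male HFHS rats. Between the sexes it differed by -0.62 log2 (SE 0.35, adjusted p = 0.293), and by diet 0.63 log2 in females (SE 0.51) and 0.039 log2 in males. Female HFHS rats 224 and 225, of conflicting diet, were at 281 and 404 CPM, so the difference by diet in females leans on them. Pfkfb3, highest in rat 111, had a 7.38-fold range, and Ppp1r3c a 4.08-fold range, from 304 CPM in rat 101 to 1240.5 CPM in rat 205. The median within-group SD was 0.21 log2 over the members and 0.18 log2 over all tested genes at 1 CPM or more.

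The promoters of the members were read for short motifs, whether or not a member moved with the slow markers. Of 36 symbols 33 matched RefSeq promoters in GRCr8, and Pgk1, Fbp2 and Gpd1 were not matched. In the 250 bases before any annotated start, on both strands, the core ACGTG, known from hypoxia response elements, was found in 15 of 33 members (45.5%) and in 18.1% of 27457 genes. Among these members were some that fell with the slow markers, such as Aldoa and Pygm, and Gbe1 and Slc16a1, which rose. Gyg1, Hk1, Pgam1, Ppp1r3c and Pygb, whose slopes did not pass, had the core too. A link between motif and slope was not tested. The E-box CACGTG, which contains that core, was found in 5 members (15.2%, all genes 6.18%), namely Gyg1, Ldha, Pfkfb3, Ppp1r3c and Slc16a1. A loose pattern for MEF2 sites, CTA and TAG with any 4 bases between them, was found in Aldoa and Ppp1r3a (6.06%, all genes 3.70%). TATAAA was found in 4 members (12.1%, all genes 14.1%). These shares were not adjusted for base composition or for the number of starts per gene, and a match is not a bound site.

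The windows of Aldoa and Pfkfb3 are shown as those of members that fell with the slow markers. Aldoa has several annotated starts, of which 2 have a match to the loose MEF2 pattern in their windows. The window chr1:190837649-190837898 on the minus strand of chromosome 1 is given, with its match in capitals. In the other, not printed, the match is CTAGTTCTAG, and that window also holds an ACGTG core. The Pfkfb3 window is chr17:71944683-71944932 on the plus strand of chromosome 17, with its E-box in capitals (RefSeq, GRCr8).
Aldoa: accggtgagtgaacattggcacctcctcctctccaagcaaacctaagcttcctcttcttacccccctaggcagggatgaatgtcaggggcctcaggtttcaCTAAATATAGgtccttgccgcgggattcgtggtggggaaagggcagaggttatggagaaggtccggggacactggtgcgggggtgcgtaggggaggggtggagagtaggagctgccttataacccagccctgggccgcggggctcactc
Pfkfb3: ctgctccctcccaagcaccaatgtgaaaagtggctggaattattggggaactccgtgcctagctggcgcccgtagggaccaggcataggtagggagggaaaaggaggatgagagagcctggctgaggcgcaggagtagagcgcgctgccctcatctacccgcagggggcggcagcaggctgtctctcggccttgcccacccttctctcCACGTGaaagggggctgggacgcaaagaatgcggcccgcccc

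Some entries have close copies. The Pkm entry on chromosome 20 (18058245 to 18060661, minus strand, rn6) had 0.623% to 1.21% of the counts of the Pkm gene on chromosome 8 in each rat, and how reads were divided between them was not tested. An entry named Gapdh-ps2 had a mean of 6.73 CPM beside 14007 CPM for Gapdh. On the X chromosome lie 3 members, Pgk1, Phka1 and Pfkfb1, and their differences by sex were -0.21 log2 (adjusted p = 0.101), -0.17 log2 (adjusted p = 0.452) and -0.11 log2 (adjusted p = 0.307) in edgeR with group means alone. None was called there, while Pgk1 was called with the slow fiber marker level in the model, as given above.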

How the data were processed

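After trimming, the authors used STAR 2.7.6a and the rat build rn6 for alignment, and SeqMonk 1.48.1 for counting over the exons of each gene's merged transcripts. The deposited values are raw counts per gene and rat, without normalization. The annotation release is not given in the sources used here. The 16 entries without a gene name, with 6.57e-05% to 0.000294% of the counts of a rat, were left out. Each rat was placed in its group by the code of its column.

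Tests were run with edgeR 4.0.16 under R 4.3.3 (filterByExpr by group, TMM scaling, robust quasi-likelihood tests, a mean for each of the 4 groups over all 23 rats). Adjusted p values follow Benjamini and Hochberg over the 13365 tested genes, with a threshold of 0.05. Log2 levels used a prior count of 2, the SE was derived from the F value, and 95% intervals from the SE. The script was tested on simulated data. Nothing says whether rats shared a cage or litter.

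The members and all lists were chosen with earlier results of these data known. Levels are given in each group for members called in a comparison of the design and for the 4 with the smallest p by sex, by diet in each sex and for the interaction, and ranges for the others. Alternatives were RLE scaling, 2 other filters on low counts, DESeq2 1.42.0, limma-voom (limma 3.58.1), the diets of the titles, leaving out each rat or the 3 conflicting females, fits to each sex alone, sex as the only term, an additive model of both factors, the number in the titles as a block, and hepatocyte or slow fiber marker levels as covariates. Chosen after seeing the data were the slope on the slow fiber markers with its own alternatives, the endothelial covariate, leaving out rats 205 and 111, and DESeq2 on each sex alone. Some genes of the pathway list are counted but not reported here by name.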

Additional observations from a re-analysis of the deposited data

Results flagged for a closer look

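Within groups of 5 or 6 rats, 10 values lay further from the nearest rat than Dixon's test at 95% allows, of 104 groups checked over 25 members. About 1 in 20 groups is picked by chance, which is 5.2 of them. Male HFHS rat 101, which had the highest slow fiber marker level of its group, was the lowest in Gpi (1096.6 CPM, nearest 1325), Pygm (9367 CPM, nearest 13075), Gpd1 (750.4 CPM, nearest 1126), Gpd2 (79.9 CPM, nearest 118) and Phkb (228 CPM, nearest 331). Female Chow rat 205, which had the lowest slow fiber marker level and conflicting diet labels, was the highest in Gpi (2141 CPM, nearest 1628) and Pgm1 (2585 CPM, nearest 1987). In Female HFHS rats, 201 was the highest in Pfkm (5638 CPM, nearest 4638), 225 in Tpi1 (780.3 CPM, nearest 643) and 210 in Pkm on chromosome 20 (44.8 CPM, nearest 39.1).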

How the results depend on the processing

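The count of members called by sex, 2 in the main analysis, was 1 with the filter at a mean count above 0.1, 1 with no filter beyond 1 count and 1 without the 3 females of conflicting diet (Pfkl in each). It was 4 with DESeq2, 4 with limma-voom, 5 without rats 205 and 111, and 17 with the slow fiber marker level as a covariate. With the hepatocyte or the endothelial marker level, which themselves differed by sex, it was 0. Leaving out each rat in turn gave 1 to 7, the most without Male Chow rat 111. On HFHS the count by sex, 0 in the main analysis, was 1 with DESeq2, 4 by the diets of the titles, 2 without the 3 females, 9 with the slow fiber marker level and 0 to 1 when each rat was left out, and on chow it was 1 with the slow fiber marker level (Eno3). The slope on the slow fiber markers called 24 members, 20 to 24 when each rat was left out, 23 with RLE, 25 with DESeq2, 24 with limma-voom, 24 with Myh7 alone as the marker and 11 without rats 205 and 111. By diet and for the interaction the count was 0 under every alternative run. Among the 4 members with the smallest p by diet in females, the difference changed sign by the diets of the titles for Eno3 (from -0.18 to 0.033 log2) and Pygb (from 0.17 to -0.20 log2). For Pygb it also changed sign without the 3 females (-0.023 log2).

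With the number in the titles as a replicate block, 1 member was called by sex (Pfkl), and Gyg1 was at -0.13 log2 (adjusted p = 0.0541). The deviations of rats with the same number from their group means had a mean correlation of -0.042 over 32 pairs, against 0.0084 over 166 pairs with different numbers. These values cannot show whether rats shared a batch, cage or litter. The least counted members had at least 32 (Pfkp) and 60 (Pygb) counts in each rat.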
